A study of Mus musculus with 4 samples.

Results

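The glucocorticoid response genes examined here are 10 of the 22066 genes on the arrays that could be given a RefSeq symbol: the receptor Nr3c1, the steroid-activating enzyme Hsd11b1, and Fkbp5, Zbtb16, Tsc22d3, Mt1, Mt2, Klf9, Cdkn1a and Errfi1. They were taken as the genes whose names the scanner files give to 14 of 55681 probes, and the set was chosen by the iBAT ratio between genotypes, since Fkbp5 and Zbtb16 were higher in ASK1-deficient iBAT, so the iBAT ratios are given as a description. Expression was measured on 4 one-colour arrays, 1 each for interscapular brown fat (iBAT) of wild-type (WT) mice, iBAT of ASK1-deficient mice, epididymal white fat (eWAT) of WT mice and eWAT of ASK1-deficient mice. Each array carried a Cy3-labelled RNA pool of 3 males, 10 weeks old, kept under what the labels call the normal condition. ASK1-deficient mice lack the stress kinase ASK1 (gene Map3k5) in the whole body, not in fat alone. They were on the C57BL/6J strain and, by the methods, were bred apart from the WT mice, so that line and genotype cannot be told apart. A group is 1 pool, so variation among animals cannot be estimated, and genotypes were compared within a tissue without a test.

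Glucocorticoids such as corticosterone cross the cell membrane and bind the glucocorticoid receptor, a transcription factor held in the cytoplasm by heat shock proteins until it is bound. The bound receptor enters the nucleus and raises genes near its response elements, among them genes that limit the signal itself, and it represses many inflammatory genes. In fat the hormone promotes adipocyte maturation and acts on lipid storage and breakdown, and it is known to curb heat production in brown fat.

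The 75th percentile of the signal was 356 to 371 on the iBAT arrays and 634 to 673 on the eWAT arrays, and every value below is a relative signal, that is, a multiple of that percentile on its own array. Relative signals of different probes are not on a common scale, and only the same probe, or the sum of 1 list, is compared between arrays. Such a sum takes the probes well above background on its own array, so the probes in it can differ between arrays. Of the 2 probes for Map3k5, the deleted gene, one read 1.26 (WT) and 0.314 (ASK1-deficient) in iBAT and 1.04 and 0.306 in eWAT, while the other read 3.04 and 2.91 in iBAT and 1.88 and 1.32 in eWAT. All 10 brown adipocyte markers that could be tested were higher in iBAT, and the defining marker Ucp1 read 965 in WT iBAT against 9.81 in WT eWAT. Transcripts of liver were seen in WT eWAT, where albumin (Alb) read 4.80 against 0.250 in ASK1-deficient eWAT, and Ucp1 read 0.397 in the latter. In whole tissue, fewer cells of a type and less RNA per cell cannot be told apart.

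Of the 14 probes, 13 were well above background on all 4 arrays, and each of the 10 genes had at least 1 of them. The remaining probe, for a second transcript variant of Cdkn1a, was not well above background on any array and was left out. Hsd11b1 and the main probe of Cdkn1a were spotted 10 times on each array, and the others once. Over all probes with repeated spots, the median SD of the log2 genotype ratio between spots was 0.0869 in iBAT (276 probes) and 0.0599 in eWAT (292 probes). This spread is that of the array surface and not of the mice.

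**Figure D1:**
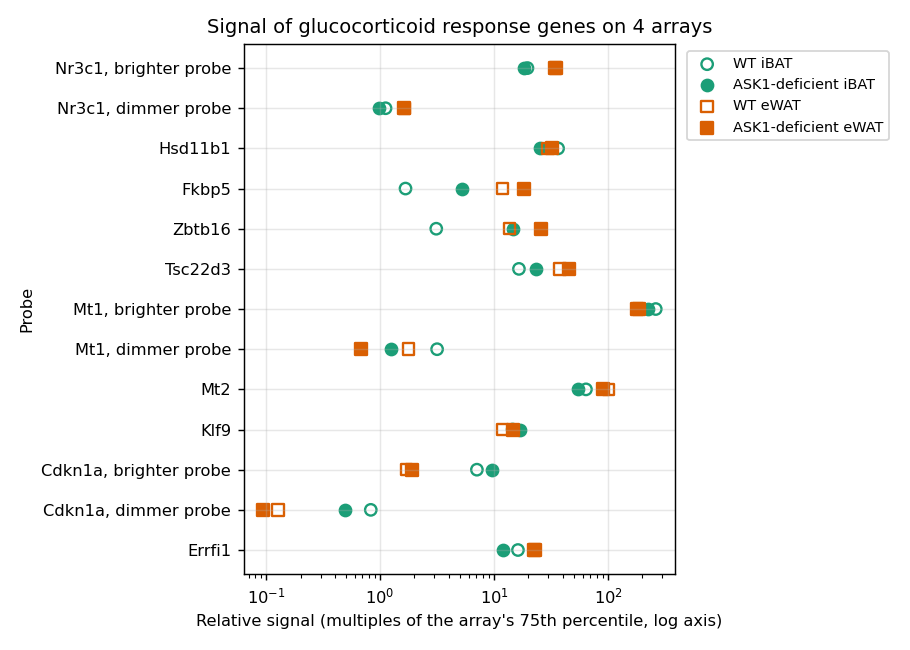
Relative signal of each probe (x axis, multiples of the 75th percentile of its array, log axis) for the 13 probes detected on every array. Circles are iBAT, squares eWAT, open symbols WT and filled symbols ASK1-deficient. Fkbp5 and Zbtb16 lie farthest apart between WT and ASK1-deficient iBAT, and the brighter and dimmer probes of Mt1 and Cdkn1a are separate rows.

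Nr3c1, which encodes the glucocorticoid receptor, was nearly level between the genotypes. Its brighter probe (mm9 chromosome 18, 39571641 to 39571700) read 19.6 and 18.2 in WT and ASK1-deficient iBAT and 34.2 and 35.1 in eWAT. The dimmer probe read 1.12 and 0.987 in iBAT and 1.64 and 1.61 in eWAT. The mean log2 ratio of both probes, ASK1-deficient over WT, was −0.14 in iBAT and 0.00 in eWAT (0.004125 before rounding), and the sign in eWAT depended on the scaling of the arrays. Both probes were brighter in eWAT than in iBAT in either genotype.

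Hsd11b1 encodes 11β-hydroxysteroid dehydrogenase type 1, which regenerates active glucocorticoid inside the cell. Its probe read 36.5 in WT iBAT, against 25.5 with ASK1 missing. The 10 spots ran from 33.1 to 39.4 in WT and from 24.4 to 26.2 in ASK1-deficient iBAT, so that the spots of the arrays did not overlap. The log2 ratio in iBAT was −0.51 ± 0.077 (SD over 10 spots of 1 array pair), or 1.43-fold lower.

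In eWAT the order of the genotypes was the opposite for Hsd11b1. The probe read 29.7 in WT and 32.2 in ASK1-deficient eWAT. Its spots ran from 28.2 to 30.7 and from 30.8 to 33.3, a narrow gap that depends on the scaling between arrays. The log2 ratio was 0.11 ± 0.033 (SD over 10 spots), and it fell to 0.02 without that scaling. H6pd, whose product supplies the cofactor of the enzyme, read 13.6 and 15.1 in WT and ASK1-deficient iBAT and 31.2 and 35.3 in eWAT. Hsd11b2, which encodes the enzyme that inactivates the hormone, was not well above background on any array.

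**Figure D2:**
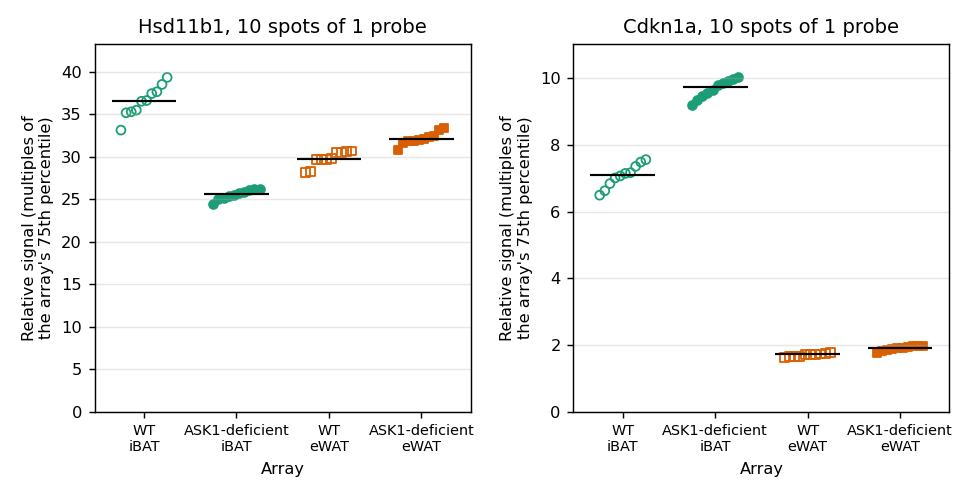
Relative signal (y axis, multiples of the 75th percentile of the array) of the 10 spots of the Hsd11b1 probe and of the main Cdkn1a probe on each array (x axis), ordered by value, with the median as a line. Hsd11b1 spots were lower in ASK1-deficient than in WT iBAT and slightly higher in ASK1-deficient than in WT eWAT, and Cdkn1a spots were several times brighter in iBAT than in eWAT.

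Fkbp5 encodes FKBP51, a co-chaperone that binds the receptor complex, lowers its affinity for the hormone and is itself raised by the hormone. Its single probe (mm9 chromosome 17, 28536060 to 28536119) read 1.67 (WT) and 5.19 (ASK1-deficient) in iBAT and 11.8 (WT) and 18.1 (ASK1-deficient) in eWAT. WT iBAT was thus the lowest and ASK1-deficient eWAT the highest of the 4 arrays. The log2 ratio between genotypes was 1.64 in iBAT, or 3.11-fold, and 17 of 14377 genes lay above it. The choice of the genes did not rest on the eWAT ratio, though earlier results of these data were known. In eWAT the log2 ratio was 0.62, or 1.54-fold, with 173 of 15377 genes (1.13%) above it. The values ranged from 1.55 to 1.74 in iBAT and from 0.53 to 0.65 in eWAT over 10 other ways of processing the arrays.

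Zbtb16 encodes PLZF, a zinc finger repressor that glucocorticoids raise in several tissues. Its single probe (mm9 chromosome 9, 48462419 to 48462478) read 3.11 (WT) and 14.5 (ASK1-deficient) in iBAT and 13.7 (WT) and 26.0 (ASK1-deficient) in eWAT. The WT iBAT array stood below the other 3, and ASK1-deficient iBAT and WT eWAT were the closest neighbours in the order. The log2 ratio between genotypes was 2.23 in iBAT, or 4.68-fold, and 3 genes had a higher ratio. In eWAT it was 0.93, or 1.90-fold, with 55 genes (0.358%) above it, and over the other ways of processing the ratio ranged from 2.14 to 2.33 in iBAT and from 0.84 to 0.95 in eWAT.

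Tsc22d3 encodes GILZ, a leucine zipper protein that carries part of the anti-inflammatory action of glucocorticoids. It read 16.5 and 23.3 in WT and ASK1-deficient iBAT and 38.0 and 45.3 in eWAT. Its log2 ratio, 0.50 in iBAT and 0.25 in eWAT, had the sign of those of Fkbp5 and Zbtb16 and was smaller. Klf9, a Krüppel-like transcription factor raised by glucocorticoids and thyroid hormone, read 14.6 and 16.8 in iBAT and 11.8 and 14.7 in eWAT. Its log2 ratios were 0.21 and 0.32.

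Mt1 and Mt2 encode metallothioneins, small cysteine-rich proteins that bind zinc and copper and are raised by glucocorticoids and by metals. The brighter Mt1 probe (mm9 chromosome 8, 96704165 to 96704224) read 262 and 223 in WT and ASK1-deficient iBAT and 186 and 181 in eWAT. The dimmer Mt1 probe (96703844 to 96703903) read 3.16 and 1.25 in iBAT and 1.78 and 0.685 in eWAT. The probes thus disagreed in size, with log2 ratios of −0.23 and −0.04 at the brighter probe and of −1.34 and −1.37 at the dimmer one in iBAT and eWAT. Their mean, −0.79 in iBAT and −0.71 in eWAT, rests mostly on the dimmer probe, and which transcript each probe reports was not tested. Mt2 read 64.1 and 54.1 in iBAT and 101 and 90.4 in eWAT, with log2 ratios of −0.24 and −0.16. The family has similar sequences, and cross-hybridization was not tested.

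Cdkn1a encodes p21, an inhibitor of cyclin-dependent kinases that glucocorticoids and p53 raise. Its main probe (mm9 chromosome 17, 29237377 to 29237436) read 7.07 and 9.68 in WT and ASK1-deficient iBAT and 1.70 and 1.89 in eWAT. The 10 spots did not overlap in iBAT, with 6.49 to 7.56 against 9.19 to 10.03, and did overlap in eWAT, with 1.63 to 1.77 against 1.74 to 1.97. The log2 ratio of this probe was 0.45 ± 0.042 in iBAT and 0.16 ± 0.065 in eWAT (SD over 10 spots). The dimmer probe (29235299 to 29235358) went the other way, with 0.828 and 0.496 in iBAT and 0.127 and 0.0945 in eWAT, or log2 ratios of −0.74 and −0.42. No single direction between genotypes is therefore given for Cdkn1a, whose mean over the probes was −0.14 in iBAT and −0.13 in eWAT.

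Errfi1 encodes MIG6, an inhibitor of the EGF receptor that glucocorticoids raise. It read 16.2 and 12.0 in WT and ASK1-deficient iBAT, with a log2 ratio of −0.44, and 22.9 and 22.6 in eWAT, where the ratio of −0.02 turned slightly positive with the values of the series table. The iBAT arrays differed by more than the median spot spread, the eWAT arrays by less. That spread comes from other probes and holds no variation among mice, so it does not tell the tissues apart.

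**Figure D3:**
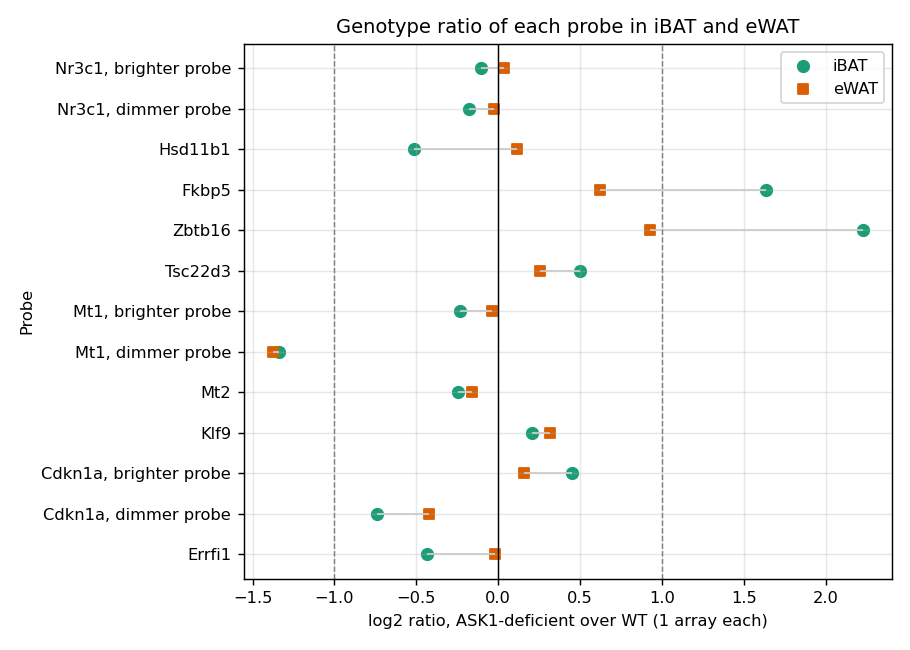
The log2 ratio of ASK1-deficient over WT (x axis, 1 array each) for each of the 13 probes in iBAT (circles) and eWAT (squares), with dashed lines at a 2-fold difference. Fkbp5 (1.64 and 0.62) and Zbtb16 (2.23 and 0.93) lie to the right in both tissues, and the dimmer Mt1 probe (−1.34 and −1.37) lies to the left in both.

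Set against all genes, 2 of the 10 genes were at least 2-fold higher in ASK1-deficient iBAT (0.835% of 14377 genes) and 0 at least 2-fold lower (1.02%). These shares lean with the scaling: of all genes past 2-fold in iBAT, 45.1% were higher, against 61.8% when the percentile was taken over detected probes, 32.6% with median centring and 31.7% with the series table. The 2 genes were Fkbp5 and Zbtb16, for which the set was chosen, so nothing is read from this count. Of the genes past the 2-fold limit, Fkbp5 lay nearer to it, at a log2 ratio of 1.64, and the highest gene under it was Tsc22d3, at 0.50. At 1.5-fold the counts were 2 higher (4.52% of all genes) and 1 lower (4.26%), the latter Mt1, only through its dimmer probe. In iBAT 4 of the 10 were above 0 (40.5% of all genes), and their median log2 ratio was −0.14, against −0.07 over all genes. That median turned to 0.05 with the brightest probe of each gene and to 0.03 without the filter on dim probes.

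In eWAT 0 of the 10 genes were at least 2-fold higher (0.286% of 15377 genes) and 0 at least 2-fold lower (0.865%). At 1.5-fold, Fkbp5 and Zbtb16 were higher (1.38% of all genes) and Mt1 was lower (2.67%), Mt1 only through its dimmer probe. Of the 10 genes 6 were above 0 (54.1% of all genes), with a median of 0.06 against 0.02 over all genes, and the median turned to −0.03 without scaling between arrays. The iBAT and eWAT ratios share no array, but both compare the same separately bred lines. Whether the tissues came from the same mice is not given in the sources used here.

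RefSeq promoter windows were matched for 8 of the 10 genes, 12 windows in all, and those of Nr3c1 and Zbtb16 were not analysed here. The 250 bases before each annotated start (build GRCm38.p6) were searched on both strands for the glucocorticoid response element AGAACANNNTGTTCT, for its 6-base repeat unit AGAACA, for the looser form GNACANNNTGTNC, and for the metal response cores TGCGCNC and TGCACNC. The full element contains the repeat unit and the looser form. Of all 32851 RefSeq windows of this length, 0.00913% held the full element, 0.387% the looser form, 16.1% the repeat unit, 12.5% the first metal core and 10.4% the second. The 4 windows below are those of Fkbp5, the most changed gene with a window, of Tsc22d3 and Mt1, which held a form of the element, and of Mt2, which held most metal cores. Matches are in capitals, each sequence runs 5′ to 3′ on the strand of its gene, and the last base is the one before the start.
Fkbp5 (chr17:28486150-28486399, minus strand): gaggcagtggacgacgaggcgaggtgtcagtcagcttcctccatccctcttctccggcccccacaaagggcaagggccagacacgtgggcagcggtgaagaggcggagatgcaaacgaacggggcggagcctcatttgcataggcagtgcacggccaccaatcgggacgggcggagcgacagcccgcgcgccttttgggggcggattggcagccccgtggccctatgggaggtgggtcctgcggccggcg
Tsc22d3 (chrX:140600523-140600772, minus strand): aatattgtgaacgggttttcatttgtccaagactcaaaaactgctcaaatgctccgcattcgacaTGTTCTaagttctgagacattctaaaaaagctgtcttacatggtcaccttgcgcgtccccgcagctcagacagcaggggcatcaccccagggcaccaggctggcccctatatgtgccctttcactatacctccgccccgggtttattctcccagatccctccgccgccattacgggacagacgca
Mt1 (chr8:94178839-94179088, plus strand): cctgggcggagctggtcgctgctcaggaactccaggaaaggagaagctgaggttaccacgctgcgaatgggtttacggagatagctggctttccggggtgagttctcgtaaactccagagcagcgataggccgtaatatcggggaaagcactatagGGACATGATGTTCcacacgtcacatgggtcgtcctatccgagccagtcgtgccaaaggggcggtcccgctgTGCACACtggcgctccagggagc
Mt2 (chr8:94172368-94172617, plus strand): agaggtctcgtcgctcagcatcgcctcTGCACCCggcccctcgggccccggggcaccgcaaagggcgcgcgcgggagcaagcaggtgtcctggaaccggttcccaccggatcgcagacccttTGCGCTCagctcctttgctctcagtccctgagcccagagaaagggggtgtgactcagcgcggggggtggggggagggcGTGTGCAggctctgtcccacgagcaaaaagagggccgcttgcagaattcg

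The Mt1 window held the looser element from 94 to 82 bases before the start, as GGACATGATGTTC, and 1 metal core from 23 to 17 bases before it. The Mt2 window held 3 metal cores, which began 223, 128 and 50 bases before the start, the last on the opposite strand, and no form of the glucocorticoid element. The Tsc22d3 window held 1 repeat unit, 185 to 180 bases before the start, and the other 2 windows of that gene held none. Hsd11b1 held 1 metal core, 237 to 231 bases before its start. No motif searched was in the windows of Fkbp5, Klf9, Cdkn1a or Errfi1, which says only that these letters are not in these bases. A match is a run of letters and not a measured binding site, the starts are those RefSeq gives, and bases after them were not searched.

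The tissues were then compared with both genotypes in 1 limma fit, whose error rests on 1 residual degree of freedom, the difference between tissues in the genotype ratio, and on the spread shared over genes. The fit uses the iBAT arrays by which the set was chosen, and its residual contains the iBAT genotype ratio. Fkbp5 and Zbtb16 are therefore given with no error or p and are not counted. Of the other 8 genes 6 differed between iBAT and eWAT at a limma adjusted p under 0.05 (55.5% of 14057 genes did). Of these, 2 were higher in iBAT (30.8% of all genes) and 4 lower (24.6%). For Fkbp5 the estimated log2 difference was −2.31, and the separate differences were −2.82 in WT and −1.81 in ASK1-deficient mice. For Zbtb16 the estimate was −1.49, with −2.14 in WT and −0.84 in ASK1-deficient mice. Both genes thus lay closer together between the depots in ASK1-deficient mice, which restates their larger genotype ratio in iBAT.

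Tsc22d3, at −1.08 ± 0.153 (SE, limma adjusted p = 0.00159), Nr3c1, at −0.75 ± 0.148 (adjusted p = 0.00605), and Mt2, at −0.70 ± 0.146 (adjusted p = 0.00771), were lower in iBAT. Errfi1 was lower in iBAT by −0.71 ± 0.167 (limma adjusted p = 0.0124), which did not pass without the filter on dim probes. Cdkn1a was the gene of the set with the largest excess in iBAT, 2.38 ± 0.145 (limma adjusted p = 6.6e-05), and its probes lay on the same side, at 2.06 and 2.71 in WT mice. Mt1 was higher in iBAT by 0.62 ± 0.146 (limma adjusted p = 0.0119), but the direction turned to −0.22 without scaling between arrays (adjusted p = 0.166). Mt1 also missed the threshold with quantile normalization (0.28, limma adjusted p = 0.108), without the filter on dim probes (adjusted p = 0.0556) and with its brightest probe (0.40, adjusted p = 0.0646).

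Klf9 and Hsd11b1 did not pass the test. Klf9 was at 0.25 in iBAT over eWAT (95% interval −0.11 to 0.60, limma adjusted p = 0.199). Without scaling it was lower in iBAT, at −0.60, and passed (limma adjusted p = 0.0105). Hsd11b1 was at −0.02 (95% interval −0.48 to 0.45, limma adjusted p = 0.940), with 0.29 in WT and −0.33 in ASK1-deficient mice. Without scaling it was at −0.86 and passed (limma adjusted p = 0.00859). The WT value turned to −0.04 with quantile normalization or cyclic loess and to −0.63 without scaling. Counted within WT mice, 1 of the 10 was at least 2-fold higher in iBAT (16.4% of 14236 genes) and 3 at least 2-fold lower (13.4%). Within ASK1-deficient mice 1 was higher (12.3% of 14513 genes) and 1 lower (12.6%). The WT eWAT array, with the liver transcripts, enters each of these values except those within ASK1-deficient mice, and the part of those transcripts was not tested.

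**Figure D4:**
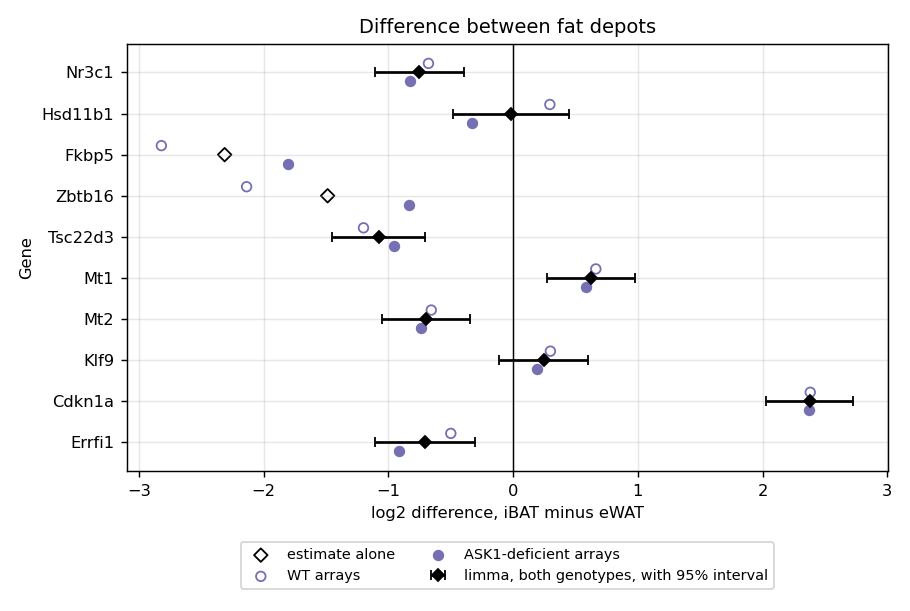
The log2 difference of iBAT minus eWAT (x axis) for each of the 10 genes: the limma estimate over 4 arrays with its 95% interval (filled diamonds and bars, open diamonds without an interval for Fkbp5 and Zbtb16, which were chosen on these arrays), the WT arrays alone (open circles) and the ASK1-deficient arrays alone (filled circles). Cdkn1a is highest in iBAT at 2.38, Fkbp5 lowest at −2.31, and the interval includes 0 for Hsd11b1 and Klf9.

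Among the 14056 other genes well above background on all 4 arrays, those with profiles nearest to Fkbp5 were taken by the Euclidean distance of the log2 values, each gene centred on its mean over the 4 arrays. They were Jchain (distance 0.258), which encodes the joining chain of immunoglobulins, Clec3b (0.317), which encodes tetranectin, Ifi207 (0.409), an interferon-inducible gene, Tent5b (0.435) and Eya2 (0.481). Jchain read 0.176 and 0.582 in iBAT (WT first, then ASK1-deficient) and 1.05 and 1.94 in eWAT. The nearest to Zbtb16 were Cdsn (0.591), which encodes corneodesmosin, Mthfd1l (0.592), a gene of mitochondrial folate metabolism, Prr32 (0.706), 1700001J03Rik (0.735) and Jchain (0.753). Cdsn read 2.97 and 10.5 in iBAT and 7.73 and 15.6 in eWAT. Fkbp5 and Zbtb16 were at a distance of 0.951 from each other, the 9th nearest for Zbtb16 and the 135th nearest for Fkbp5. With 4 arrays these orders are descriptions.

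Of 20 other genes of the receptor machinery, 18 were measured in each tissue and 0 were at least 2-fold apart between the genotypes in either. That is near the shares over all genes, 0.835% higher and 1.02% lower in iBAT and 0.286% and 0.865% in eWAT. The list holds the mineralocorticoid receptor, steroid-converting enzymes, chaperones, coregulators and steroid exporters. Its log2 ratios ran from −0.35 to 0.27 in iBAT and from −0.20 to 0.28 in eWAT. Hsp90ab1, the heat shock protein that holds the receptor ready for the hormone, read 188 and 184 in WT and ASK1-deficient iBAT and 84.6 and 90.5 in eWAT. Fkbp4, whose product competes with FKBP51 for the receptor complex, read 3.22 and 3.23 in iBAT and 1.48 and 1.55 in eWAT. Nr3c2, the mineralocorticoid receptor, which also binds corticosterone, read 0.128 and 0.129 in iBAT and 0.0634 and 0.0771 in eWAT. Serpina6, the plasma carrier of the hormone made in liver, passed the background limit at 1 of its 2 probes, on the WT eWAT array alone, at least 2.13-fold above ASK1-deficient eWAT, and its other probe did not pass on any array. Pgr, the progesterone receptor, passed the background limit at 1 of its 3 probes, on the ASK1-deficient eWAT array alone, at least 2.52-fold above WT, and the other 2 did not pass on any array.

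Of 36 other genes known to be raised by glucocorticoids in some tissue, 35 were measured in iBAT, where 2 were at least 2-fold higher (0.835% of all genes) and 2 lower (1.02%). Angptl4, a secreted inhibitor of lipoprotein lipase, read 153 and 309 in WT and ASK1-deficient iBAT and 137 and 229 in eWAT, and its log2 ratios were 1.02 and 0.74. Hif3a, a hypoxia-inducible factor, had log2 ratios of 1.14 and 0.69, and its brightest probe read 0.0601 and 0.132 in iBAT and 0.491 and 1.23 in eWAT. The eWAT value is the mean of 1.32 at that probe and 0.05 at a dim one. Ddit4, an inhibitor of mTORC1 signalling, read 30.8 and 12.8 in iBAT (log2 ratio −1.27) and 47.6 and 42.0 in eWAT (−0.18). Irs2, an adaptor of the insulin receptor, read 33.9 and 16.6 in iBAT (−1.03) and 8.79 and 11.9 in eWAT (0.43). The list therefore held genes 2-fold apart in both directions in iBAT, with a median log2 ratio of 0.13 and 20 of 35 above 0, against −0.07 and 40.5% over all genes. The median ran from 0.05 to 0.23 over the other ways of processing. Angptl4 and Hif3a stayed past 2-fold under 8 of 10 of these each and Irs2 under 6 of 10, while Ddit4 did so under all 10.

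In eWAT 34 of these genes were measured, 0 were 2-fold higher (0.286% of all genes) or lower (0.865%), and 25 were above 0 with a median of 0.28, against 54.1% and a median of 0.02 over all genes. That median ran from 0.20 to 0.31 over the other ways of processing, and 1 gene was 2-fold higher, Hif3a by its brightest probe, where only the brightest probe or probes above background on all 4 arrays were taken. Inflammatory genes that glucocorticoids repress were mostly dim. In eWAT 2 of 7 measured were at least 2-fold lower (0.865% of all genes), the cytokine gene Tnf at a log2 ratio of −1.22 and the chemokine gene Ccl2 at −1.18. In WT and ASK1-deficient eWAT Ccl2 read 3.86 and 1.70, and the dim Tnf 0.109 and 0.0466. Il1b, below the background limit in ASK1-deficient eWAT, was higher in WT by at least 5.52-fold. In iBAT 0 of 5 measured were 2-fold apart (0.835% of all genes higher and 1.02% lower), and 4 were above 0 (40.5%). The median was 0.44 over these 5 in iBAT and −0.75 over the 7 in eWAT, which are unlike sets. Over the 5 genes above background on all 4 arrays the eWAT median was −0.49. Over the other ways of processing the medians ran from 0.28 to 0.54 in iBAT and from −0.84 to −0.42 in eWAT. With the percentile over detected probes 1 of 5 was 2-fold higher in iBAT. With normexp background correction 1 of 7 was 2-fold lower in eWAT, where Tnf fell to −0.42. The difference between the tissues was not tested.

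**Figure D5:**
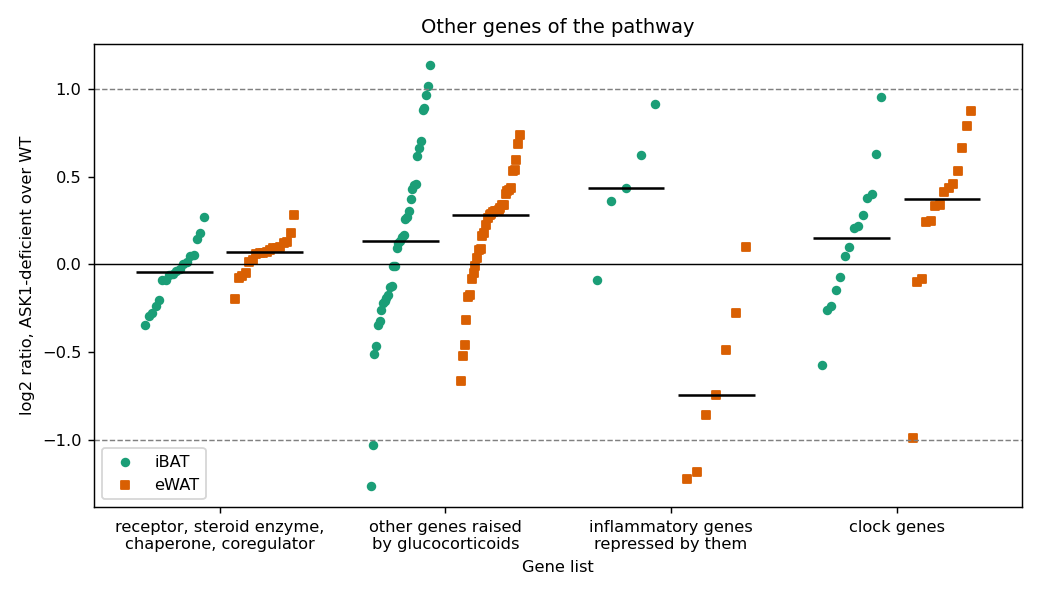
The log2 ratio of ASK1-deficient over WT (y axis) of each measured gene in 4 lists (x axis), in iBAT (circles) and eWAT (squares), with the median as a line and dashed lines at a 2-fold difference. Genes of the receptor machinery lie near 0, and other genes raised by glucocorticoids spread to both sides in iBAT with a median of 0.13. Repressed inflammatory genes have medians of 0.44 in iBAT (5 genes) and −0.75 in eWAT (7 genes), and clock genes medians of 0.15 and 0.37.

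Lists for the other known inputs of these genes were read in the same way. Over all genes, 0.835% were at least 2-fold higher and 1.02% lower in ASK1-deficient iBAT, and 0.286% and 0.865% in ASK1-deficient eWAT. The medians over all genes were −0.07 and 0.02, and 40.5% were above 0 in iBAT. Of the other genes of metal handling, 6 were measured in iBAT and 7 in eWAT, and 0 were 2-fold apart, near the shares over all genes. Mt4, dim in WT iBAT, was at least 2.43-fold higher in ASK1-deficient iBAT. Of 12 other p53 targets, 5 were above 0 in iBAT and 7 below, with a median of −0.09. Only Trp53inp1 was past 2-fold there, higher in ASK1-deficient iBAT at a log2 ratio of 1.33, and 0 were 2-fold apart in eWAT. Of the EGF receptor and its feedback genes, 7 were measured in iBAT, 3 of them above 0 and 4 below. Their median of −0.42 turned to 0.03 without the filter on dim probes. Spry4, at −1.29, and Dusp6, at −1.09, both inhibitors of ERK signalling, were at least 2-fold lower in iBAT. In eWAT 0 of 8 were 2-fold apart. Spry4 stayed past 2-fold under all 10 other ways of processing and Dusp6 under 7. Of 14 clock genes 0 were 2-fold apart in either tissue, near the shares over all genes, and their medians were 0.15 in iBAT and 0.37 in eWAT. Over the other ways of processing these medians ran from 0.07 to 0.26 and from 0.29 to 0.41. The clock activator Arntl, at −0.58 and −0.99, and the repressor Nr1d1, at 0.96 and 0.53 in iBAT and eWAT, are named after their values were seen. Under 3 of the 10 other ways of processing Nr1d1 was past 2-fold in iBAT and Arntl in eWAT. Secretion of glucocorticoids is known to follow the time of day. The hour of tissue collection is not given in the sources used here, and its part in these ratios was not tested.

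Markers of other cell types also differed between the arrays of the genotypes. In iBAT 8 of 8 macrophage markers were above 0 (40.5% of all genes) with a median log2 ratio of 0.65, and their summed relative signal came to 41.4 (WT) and 51.2 (ASK1-deficient), against 148 and 139 in eWAT, where the median was −0.06. Such a sum adds probes of different scale and follows the probe with the strongest signal, here 1 probe of Itgam, at 23.6 and 28.5 in iBAT. The macrophage marker past 2-fold in iBAT was Fcgr1, an Fc receptor gene, which read 0.0845 (WT) and 0.170 (ASK1-deficient) and was past it under 5 of the 10 other ways of processing. In eWAT 5 of 7 measured hepatocyte markers were past 2-fold in favour of WT (0.865% of all genes), with a median of −3.47, and 3 more were so by a bound, while Cyp2e1, which fat also expresses, read 422 in both genotypes at its brighter probe. The plasma protein genes Ahsg and Serpinc1 had log2 ratios of −5.58 and −4.03 there, and Fgb and Ttr were at least 42.0-fold and 37.7-fold higher in WT. The summed signal of the list, 678 and 636, came mostly from the 2 probes of Cyp2e1 and does not show these differences. In iBAT the hepatocyte sum was 91.4 and 86.8, again mostly from the Cyp2e1 probes. Serpina1a was nevertheless higher in ASK1-deficient iBAT, at a log2 ratio of 1.55 (0.96 with normexp), and 3 markers were higher there by a bound, Alb by at least 5.62-fold, Ahsg by 5.23-fold and Ttr by 2.18-fold. The median over the brown adipocyte markers was −0.26 for the iBAT arrays and −0.51 for the eWAT arrays on the log2 scale, and their summed signal was 3897 and 3252 in iBAT and 56.0 and 23.9 in eWAT. Of the 12 measured in iBAT, 2 were past 2-fold and lower in ASK1-deficient mice (1.02% of all genes), namely Elovl3, a fatty acid elongase, at 3.59 and 0.208, and Dio2, which activates thyroid hormone, at 27.6 and 5.33. In eWAT 3 of 10 were at least 2-fold lower (0.865% of all genes), Ucp1 at a log2 ratio of −4.63, Cidea, a lipid droplet protein gene, at −2.23 and Dio2 at −1.02, the last under 8 of the 10 other ways of processing.

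The remaining marker lists were read in the same way. Summed muscle markers read 623 and 634 in WT and ASK1-deficient iBAT and 8.78 and 4.50 in eWAT, with Acta1, skeletal muscle actin, at a log2 ratio of −1.02 in eWAT, past 2-fold under 8 of 10 other ways. The B cell gene Ms4a1, dim in ASK1-deficient iBAT, was at least 2.94-fold higher in WT iBAT. The median log2 ratios in iBAT and eWAT were −0.04 and 0.01 for white adipocyte, −0.29 and 0.08 for shared adipocyte, −0.30 and −0.16 for lymphocyte, 0.13 and −0.16 for endothelial, and −0.26 and −0.20 for erythrocyte markers. The white adipocyte medians and the shared adipocyte median in eWAT changed sign with the processing. Of the markers of epididymis and testis, 2 were measured in iBAT and 3 in eWAT, with summed signals between 0.237 and 0.306 on all arrays. The part of other cell types in the ratios of the 10 genes was not tested.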

How the data were processed

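The authors deposited, for each array, the output of Agilent Feature Extraction 10.7.3.1, whose processed signal is a background-corrected intensity, not scaled between arrays. They also deposited a series table of linear signal values. Set against the scanner values, each of its columns is the processed signal divided by 1 constant that makes the median 1. Probe positions are those of the files (mm9), and exons were not assigned.

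Control spots and outlier spots were dropped, the processed signal was put on the log2 scale, repeated spots were averaged, and each array was scaled by subtracting its 75th percentile. A gene's ratio is the mean over probes detected well above background on the compared arrays, and a probe dim on 1 array has only a bound ("at least"), against the higher of its own level and the lowest signal well above background on that array. The files hold 34844 gene names, and RefSeq gave a symbol for 22147 of them, which come to 22066 genes, and probes under the other names were left out of gene values. Arrays were grouped by their labels. Genotypes within a tissue were compared with no test, past 2-fold. The tissues were compared with limma (lmFit and eBayes, genotype and tissue as terms, Benjamini-Hochberg over 14057 genes well above background on all 4 arrays). The genes and the 18 other lists were chosen with earlier results of these data known. Every gene of the set is named, with genes of other lists at least 2-fold apart between genotypes (measured, or by a bound where no probe was measured, at most the 5 largest a list and tissue) and the 5 nearest profiles of Fkbp5 and Zbtb16. Hsp90ab1, Fkbp4, H6pd and Hsd11b2 come from the receptor list, and Alb, Ucp1, Cyp2e1, Arntl and Nr1d1 were named after their values were seen. Some results are not reported here. Arrays give no counts, so their number, 1 a group, limits the precision.

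Alternatives were normexp background correction (offset 50), quantile normalization, no scaling, the percentile over detected probes, median centring, cyclic loess, the series table, 2 other filters, the brightest probe and a 1.5-fold threshold. The scripts were tested on simulated data. The tools were R 4.3.3, limma 3.58.1, Python 3.11.15, numpy 2.4.6, pandas 2.3.3 and matplotlib 3.10.9.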

Additional observations from a re-analysis of the deposited data

Results flagged for a closer look

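Of the 10 genes, Hsd11b1 and Nr3c1 had genotype ratios of opposite sign in the 2 tissues, and for neither was the difference between tissues tested, since each condition has 1 array. Hsd11b1 had a log2 ratio, ASK1-deficient minus WT, of −0.51 in iBAT and 0.11 in eWAT, and the same values read the other way give iBAT minus eWAT differences of 0.29 (WT) and −0.33 (ASK1-deficient). The WT difference turned to −0.04 with quantile normalization or cyclic loess and to −0.63 without scaling, while the genotype ratios kept their signs under all 10 alternatives. Nr3c1 had a log2 ratio of −0.14 in iBAT and 0.004125 in eWAT, the latter smaller than the spread between spots of a probe.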

How the results depend on the processing

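Over 10 alternatives the iBAT genotype ratios of the 10 genes kept their direction in 98 of 100 cases and the eWAT ratios in 92 of 100, and the exceptions were Cdkn1a in both tissues and Nr3c1 and Errfi1 in eWAT. The number at least 2-fold higher in iBAT was 2 under each alternative run. With a 1.5-fold threshold the numbers lower in iBAT, higher in eWAT and lower in eWAT were 1, 2 and 1. The number at least 2-fold lower in iBAT than in eWAT within WT was 4 with quantile normalization (14.5% of all genes) or cyclic loess (15.3%) and 6 without scaling (39.6%). Within ASK1-deficient mice it was 2 with normexp (9.13%), median centring (13.9%) or the series table (13.7%), 3 with cyclic loess (13.6%), 4 with quantile normalization (13.5%) and 7 without scaling (35.6%). By limma, 47.9% to 77.3% of all genes differed between tissues. With Fkbp5 and Zbtb16 not counted, the calls that changed were those of Mt1, Klf9, Hsd11b1 and Errfi1. Without scaling, which moved the median of all genes between tissues from 0.12 to −0.80 in WT, Mt1 turned to −0.22 and no longer passed in the limma fit, and Klf9, turned to −0.60, and Hsd11b1, at −0.86, passed the threshold. Mt1 also missed it with quantile normalization (0.28), without the filter on dim probes (0.62) or with its brightest probe (0.40), nor did Errfi1 without that filter (−0.71). Within WT the tissue difference of Hsd11b1 kept its direction under 7 of 10 alternatives and turned to −0.04 with quantile normalization or cyclic loess and to −0.63 without scaling. The median of all genes in iBAT ran from −0.15 to 0.04 over the scalings. The cause of these changes was not tested. The limma fit compares the tissues within each genotype, and no other pairing was possible, since the labels give no replicate numbers. Leaving out an array and blocking on the slide were not run, since each group has 1 array and all arrays share 1 slide. What limits every genotype value is the single pool: the signal was well above background for all 10 genes, and 8 of them rest on probes with 1 spot an array.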
